A study of Mus musculus with 8 samples.

Results

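The Slc25 genes encode the mitochondrial solute carriers, a family of proteins that sit mostly in the inner mitochondrial membrane and move nucleotides, phosphate, carboxylates, amino acids and cofactors between the cytosol and the matrix. Each carrier is built from repeated pairs of membrane-spanning helices and is usually an exchanger, so that one substrate enters as another leaves. The uncoupling proteins of brown fat belong to the same family under other symbols. Members were taken by symbol, as every gene named Slc25a followed by a number with Slc25a1 and Slc25a20 left out, which gave 42 of the 22869 genes in the deposited table. Of these, 37 passed the filter on low counts and were tested, and 5 did not.

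Polyadenylated RNA of the inguinal fat pad, a white adipose depot under the skin of the groin, was sequenced after the lymph nodes had been removed. There were 4 libraries from wild-type mice and 4 from Fabp4-Ebf2 mice, which carry the transcription factor gene Ebf2 behind Fabp4 regulatory sequence, called Ap2-Ebf2 in the file headers. All mice were of mixed background, about 6 weeks old, fed normal chow and kept at room temperature. Fabp4 regulatory sequence is active in adipocytes and is known to act in macrophages too. Whether the libraries are different animals is not in the labels. The p-values therefore rest on the variation among these libraries, which may be technical.

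Library totals ran from 16.9 to 24.7 M reads, and levels are given as CPM, read counts scaled to a common library size with TMM factors. Ebf2 stood at 37.0, 14.9, 30.3 and 29.4 CPM in wild-type replicates 1 to 4 and at 499, 231, 575 and 447 CPM in Fabp4-Ebf2 replicates 1 to 4. It rose by 3.98 on the log2 scale (edgeR's quasi-likelihood test, adjusted p = 0.00177), and reads of the transgene and of the mouse's own gene were not separated. The 8 adipocyte markers summed to 23052 to 33107 CPM in wild type and 20023 to 27992 CPM in Fabp4-Ebf2, with 0 past edgeR's test, 2 lower at an unadjusted p under 0.05 and 1 lower by DESeq2. Skeletal muscle markers were lower in the Fabp4-Ebf2 libraries, with all 20 log2 fold changes negative, a median of -2.05 and 2 past the test. Their summed level was 520 to 1535 CPM in wild type, highest in replicate 1, and 92.9 to 488 CPM in Fabp4-Ebf2, highest in replicate 2. Summed lymphocyte markers were at 788 to 1452 CPM against 697 to 875 CPM, macrophage markers at 1502 to 2820 CPM against 1404 to 2417 CPM, and endothelial markers at 717 to 921 CPM against 676 to 799 CPM. All 8 lymphocyte and all 7 endothelial log2 fold changes were negative. Of the macrophage ones 3 were positive and 4 negative, and in these lists 0 passed edgeR's test. Lyz2 made up most of the macrophage sum, while Emr1 reached 282 CPM in Fabp4-Ebf2 replicate 4 (log2 fold change 1.03, edgeR adjusted p = 0.272). The part of these other cells in the carrier results was not tested.

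The promoters of Slc25a34 and Slc25a42 are shown because these genes had the largest rises of the family. The windows run from 250 bases before to 50 after the start of the gene in RefSeq (build GRCm38.p6), at chr4:141623785-141624084 and chr8:70212232-70212531, both on the minus strand. Capitals mark the letters AAGGTCA, the half-site of estrogen-related receptors, on either strand.
Slc25a34: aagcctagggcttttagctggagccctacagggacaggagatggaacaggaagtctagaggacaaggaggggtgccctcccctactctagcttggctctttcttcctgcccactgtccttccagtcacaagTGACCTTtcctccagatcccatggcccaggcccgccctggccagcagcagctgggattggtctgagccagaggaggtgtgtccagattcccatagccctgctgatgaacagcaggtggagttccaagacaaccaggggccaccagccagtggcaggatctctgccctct
Slc25a42: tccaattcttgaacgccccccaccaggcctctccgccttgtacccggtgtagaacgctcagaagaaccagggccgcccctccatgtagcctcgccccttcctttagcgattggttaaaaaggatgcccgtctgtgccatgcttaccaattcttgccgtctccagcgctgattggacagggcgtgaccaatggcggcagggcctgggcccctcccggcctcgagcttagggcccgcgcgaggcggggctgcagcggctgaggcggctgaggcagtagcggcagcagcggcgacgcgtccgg
The match in Slc25a34 begins 119 bases upstream of the start and reads TGACCTT on the printed strand. Of the 32 members with a promoter in the table it was the 1 with these letters, which 4.72% of all 32851 promoters of that length hold. The letters CCCNNGGG, the core bound by EBF proteins, were in the promoters of 9 of the 32 members and in 13.7% of all promoters, and in neither window printed here. For both motifs members were counted by gene and the background by promoter. A gene with several promoters has more chances of a match, so the shares are not like for like, and enrichment was not tested. The Slc25a42 promoter had the higher GC content, at 65.7% against 59.0%.

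A carrier of unsettled substrate and the coenzyme A carrier rose in Fabp4-Ebf2 fat, and the carriers of ADP, ATP and phosphate did not pass the test. Of the 37 tested members, 3 rose and 0 fell past the threshold (edgeR's quasi-likelihood test, Benjamini-Hochberg adjustment over all tested genes at 0.05). Of all 15002 tested genes 3.42% passed, 2.80% higher and 0.620% lower, and of the members 8.11% were higher. Slc25a34 and Slc25a42 were among the 3. At an unadjusted p under 0.05, 13 members were higher and 2 lower, beside 1535 and 1090 of all 15002 tested genes. DESeq2 called 6 higher and 1 lower, beside 835 and 365 over all genes. With limma-voom it was 3 and 0, beside 372 and 82. The same backgrounds hold for the role groups and lists of this report. Without Fabp4-Ebf2 replicate 2, 5 members rose by edgeR. Positive log2 fold changes were found for 24 of the 37 (64.9%), beside 48.4% of all tested genes. The median of the 37 was 0.09, and that of all tested genes -0.01. The other 34 had log2 fold changes from -0.61 to 1.48, 21 positive and 13 negative. In bulk tissue, fewer cells of a type and less RNA per cell cannot be told apart.

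**Figure D1:**
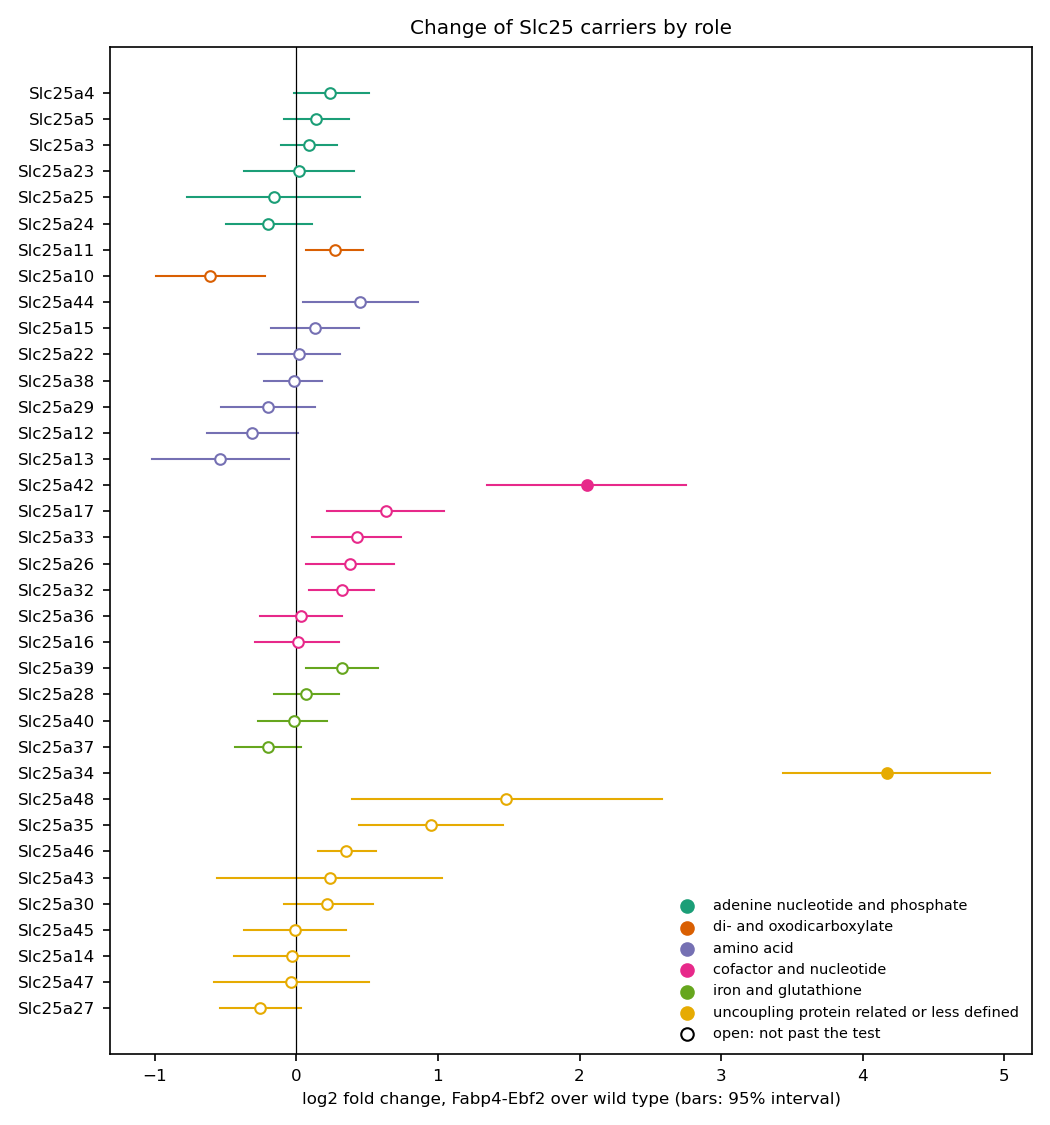
Log2 fold change of tested Slc25 genes, Fabp4-Ebf2 over wild type (x axis, bars are 95% intervals), ordered by role, with filled points past edgeR's test. Slc25a34 and Slc25a42 are the filled points, and the adenine nucleotide and phosphate carriers lie between -0.20 and 0.24.

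Slc25a34 had the largest change of the family. It is a carrier whose substrate is not settled. Its level was 1.31, 0.969, 1.12 and 0.951 CPM in wild-type replicates 1 to 4 and 21.5, 9.68, 27.3 and 20.2 CPM in the Fabp4-Ebf2 libraries. The groups did not overlap, and the lowest Fabp4-Ebf2 library, replicate 2, was still several times above the highest wild-type library. These levels rest on 16 to 493 reads. The gene rose 18-fold (log2 fold change 4.17, SE 0.33, edgeR adjusted p = 6.58e-04), from 1.09 ± 0.167 to 19.7 ± 7.35 CPM (SD, n = 4 per genotype).

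Slc25a42 encodes the carrier that brings coenzyme A into the matrix. It stood at 58.2, 28.9, 49.5 and 54.1 CPM in wild type and at 215, 112, 300 and 164 CPM in Fabp4-Ebf2. The groups did not overlap, with replicate 2 lowest in both. It rose 4.15-fold, from 47.7 ± 13.0 to 197 ± 80.3 CPM (log2 fold change 2.05, SE 0.31, edgeR adjusted p = 0.0126). Without wild-type replicate 3 it lay just outside the threshold, at edgeR adjusted p = 0.0504.

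In both genes Fabp4-Ebf2 replicate 2 was the lowest and replicate 3 the highest of the transgenic libraries. The same held for most genes that rose: of the 420, replicate 2 was lowest for 69.0% and replicate 3 highest for 83.3%. Replicate 2 also had the least Ebf2 and the most muscle transcript of the group. The level of all 42 carriers summed was 2948, 2478, 2645 and 2753 CPM in wild type and 3141, 2750, 3591 and 3026 CPM in Fabp4-Ebf2. The highest wild-type library overlapped with the lowest transgenic one.

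**Figure D2:**
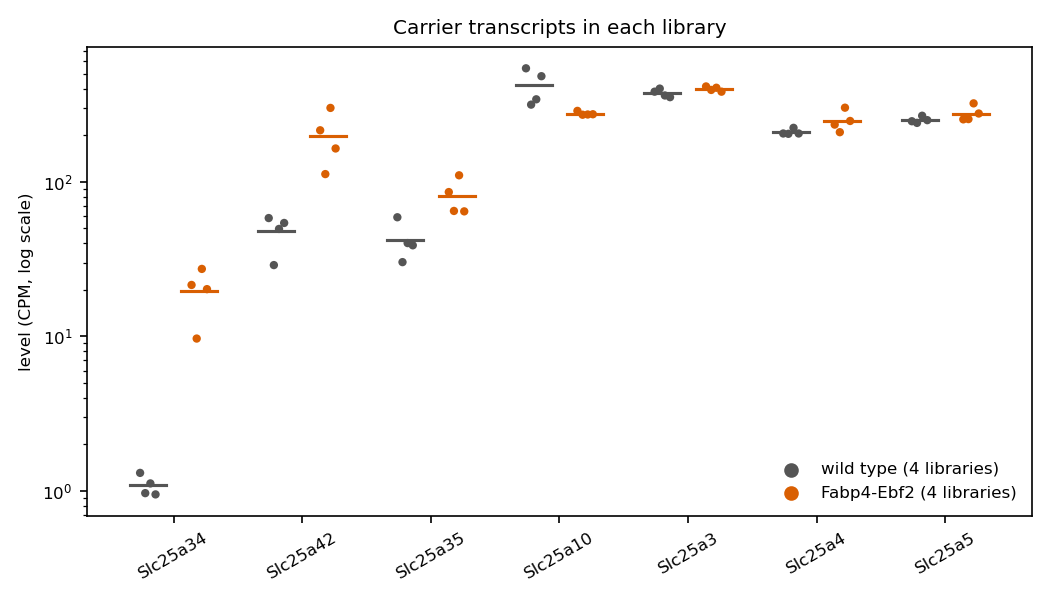
Level of 7 Slc25 genes in each library (y axis, CPM on a log scale), grey for wild type and orange for Fabp4-Ebf2, with the group means as bars. Slc25a34, Slc25a42 and Slc25a35 separate the genotypes upward and Slc25a10 downward, while Slc25a3, Slc25a4 and Slc25a5 overlap.

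All 8 tested cofactor and nucleotide carriers had positive log2 fold changes, with a median of 0.40, and 6 did not overlap between the genotypes upward, against 7.35% of all tested genes. Slc25a42, described above, belongs to them. Slc25a17 brings cofactors across the peroxisomal membrane rather than the mitochondrial one. It had 49.6, 47.3, 51.4 and 46.7 CPM in wild type and 69.3, 51.9, 106 and 74.8 CPM in Fabp4-Ebf2. The wild-type libraries lay close together and the transgenic ones spread above them, with replicate 2 near the wild-type level (log2 fold change 0.63, SE 0.18, edgeR adjusted p = 0.104). Without Fabp4-Ebf2 replicate 2 it passed, at edgeR adjusted p = 0.0157. In all it passed under 3 of 15 alternatives, and with other single libraries left out its edgeR adjusted p rose to as much as 0.224.

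The pyrimidine nucleotide carrier Slc25a33 (log2 fold change 0.43, SE 0.14), the S-adenosylmethionine carrier Slc25a26 (0.38, SE 0.14) and the folate and FAD carrier Slc25a32 (0.32, SE 0.10) were also separated between the genotypes without passing, at edgeR adjusted p = 0.143, 0.188 and 0.134. S-adenosylmethionine is the methyl donor for coenzyme Q synthesis and for the methylation of mitochondrial RNA. Slc25a36, the other pyrimidine nucleotide carrier, was at 27.5 to 42.5 CPM in wild type and 37.3 to 39.5 CPM in Fabp4-Ebf2. Slc25a16, a carrier linked to coenzyme A, was at 38.1 to 53.8 and 44.5 to 58.8 CPM. Both groups overlapped for these genes, with 95% intervals of the log2 fold change from -0.26 to 0.32 for Slc25a36 and from -0.29 to 0.30 for Slc25a16.

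The adenine nucleotide and phosphate carriers supply the ATP synthase and export its product. None of the 6 tested passed edgeR, and 0 had an unadjusted p under 0.05 or passed DESeq2 or limma-voom. The phosphate carrier Slc25a3 had the highest level per kilobase of transcript of all members in wild type, 232 CPM per kb. It was at 382, 400, 361 and 352 CPM in wild type and 413, 392, 405 and 382 CPM in Fabp4-Ebf2. The groups overlapped, and the 95% interval of the fold ran from 0.927 to 1.23.

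Slc25a4 encodes ANT1, the ADP/ATP carrier most abundant in heart and skeletal muscle. Its level was 205, 204, 223 and 205 CPM in wild type and 234, 209, 301 and 247 CPM in Fabp4-Ebf2 (log2 fold change 0.24, SE 0.12, edgeR adjusted p = 0.321). The groups overlapped through the low replicate 2, and the interval of the fold ran from 0.986 to 1.42. Muscle markers were lower in the same Fabp4-Ebf2 libraries, and their part in the level of this gene was not tested.

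Slc25a5, the widely expressed ADP/ATP carrier ANT2, was at 240 to 267 CPM in wild type and 253 to 321 CPM in Fabp4-Ebf2, with a 95% interval of the fold from 0.940 to 1.29. A copy named Slc25a5-ps is annotated in the mouse genome, so reads may be split with it. The calcium-regulated ATP-Mg/phosphate carriers Slc25a23, Slc25a24 and Slc25a25 had log2 fold changes of 0.02, -0.20 and -0.16, and their groups overlapped. Slc25a25 varied most, with wild-type replicate 3 at 80.1 CPM above its group's other libraries at 51.1 to 53.4, and Fabp4-Ebf2 replicate 2 at 27.0 CPM below its own at 51.6 to 69.7.

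Subunits of the complexes that these carriers serve are given beside them, a list that was not planned before the data were seen. Of 51 nuclear-encoded subunits of the respiratory chain and ATP synthase, 42 rose and 0 fell by edgeR, with 49 higher and 0 lower at an unadjusted p under 0.05 and 47 and 0 by DESeq2. Their median log2 fold change was 0.74 and the lowest was 0.01. Their count was 17 without Fabp4-Ebf2 replicate 1 and 9 without wild-type replicate 3 or 4. The summed level of Slc25a3, Slc25a4 and Slc25a5 was 833, 844, 851 and 807 CPM in wild type and 900, 855, 1027 and 906 CPM in Fabp4-Ebf2. That of the respiratory chain list was 10470, 8962, 9733 and 10201 CPM against 16884, 14959, 23421 and 16044 CPM. Reads of the 3 carriers per 100 reads of the list were 7.96, 9.42, 8.74 and 7.91 in wild type and 5.33, 5.71, 4.38 and 5.64 in Fabp4-Ebf2. Every transgenic library was below every wild-type library in this measure, which was chosen after the values were seen and was not tested. The summed carriers themselves were narrowly higher in every transgenic library, the lowest at 855 CPM against a wild-type maximum of 851 CPM. Their mean went from 834 to 922 CPM and that of the list from 9842 to 17827 CPM. The lower quotient therefore reflects the larger rise of the list, not a fall of the carriers.

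**Figure D3:**
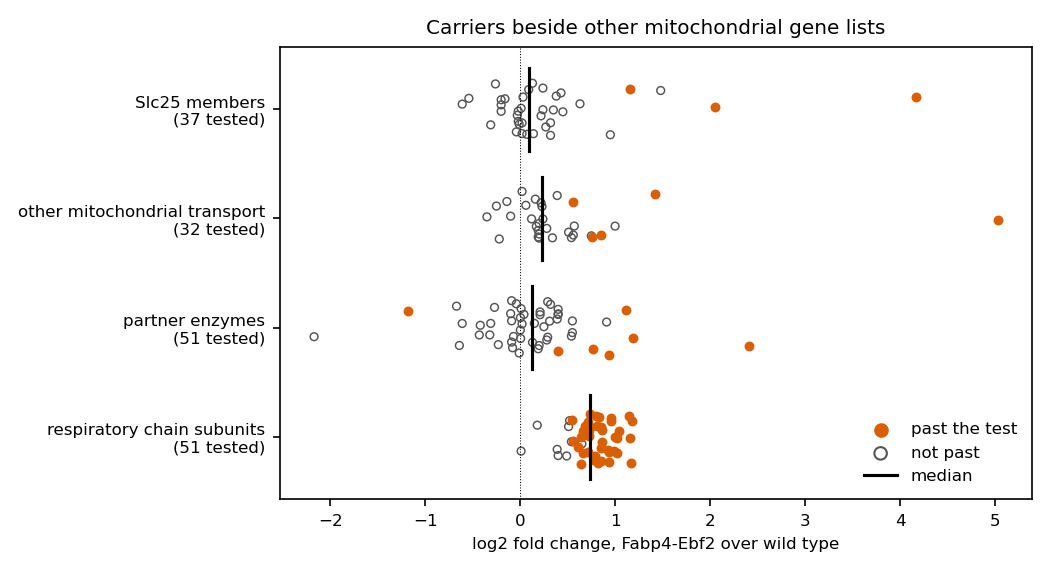
Log2 fold change, Fabp4-Ebf2 over wild type (x axis), of each tested gene of 4 lists, with filled points past edgeR's test and a bar at the median. The carriers centre at 0.09 and the respiratory chain subunits at 0.74.

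Neither of the 2 tested dicarboxylate carriers passed edgeR or limma-voom, with 1 higher and 1 lower at an unadjusted p under 0.05 and 1 lower by DESeq2. Slc25a10 exchanges malate or succinate for phosphate and serves lipid synthesis in white fat, and in wild type it was second in level per kilobase, at 207 CPM per kb. Its level was 541, 315, 341 and 481 CPM in wild type and 287, 271, 272 and 273 CPM in Fabp4-Ebf2. All transgenic libraries were below all wild-type libraries and close to each other, as for 4.07% of all tested genes. The log2 fold change was -0.61 (SE 0.17, edgeR adjusted p = 0.0970), so that the gene did not pass edgeR's test, but DESeq2 placed it past the threshold at adjusted p = 0.0145. In the authors' deposited table its FDR was 0.0109. It passed edgeR without wild-type replicate 2 at adjusted p = 0.0428. In all it passed under 2 of 15 alternatives, and with other single libraries left out its edgeR adjusted p rose to as much as 0.234.

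Slc25a11, the 2-oxoglutarate/malate carrier of the malate-aspartate shuttle, was at 97.6 to 116 CPM in wild type and 119 to 140 CPM in Fabp4-Ebf2 (log2 fold change 0.27, SE 0.09, edgeR adjusted p = 0.140). The groups did not overlap, by a narrow margin. Its exons overlap those of Rnf167 on the other strand, so reads may be shared if strand was not used in counting.

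None of the 7 tested amino acid carriers passed edgeR, 1 was higher and 1 lower at an unadjusted p under 0.05, and DESeq2 and limma-voom called 0. The aspartate/glutamate carriers of the malate-aspartate shuttle, Slc25a12 (aralar) and Slc25a13 (citrin), had lower means. Slc25a12 was at 24.5 to 36.2 CPM in wild type and 21.6 to 29.7 CPM in Fabp4-Ebf2 (log2 fold change -0.31, SE 0.14, edgeR adjusted p = 0.293). Slc25a13 was at 2.41 to 4.38 CPM in wild type and 2.13 to 2.93 CPM in Fabp4-Ebf2 (log2 fold change -0.54, SE 0.22, edgeR adjusted p = 0.236). Both overlapped between the genotypes. In wild type Slc25a12 exceeded Slc25a13 also per kilobase, at 4.78 against 1.14 CPM per kb.

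Slc25a44, the carrier of branched-chain amino acids known from brown fat, was at 117, 74.4, 115 and 111 CPM in wild type and 163, 104, 163 and 144 CPM in Fabp4-Ebf2. Replicate 2 was low in both groups and made them overlap (log2 fold change 0.45, SE 0.18, edgeR adjusted p = 0.231). The glutamate carrier Slc25a22, the ornithine carrier Slc25a15, the glycine carrier Slc25a38 and the basic amino acid carrier Slc25a29 had log2 fold changes of 0.02, 0.13, -0.02 and -0.20.

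Of the 4 iron and glutathione carriers 0 passed edgeR, DESeq2 or limma-voom, and 1 was higher at an unadjusted p under 0.05. The glutathione carrier Slc25a39 was at 171, 148, 127 and 142 CPM in wild type and 182, 177, 212 and 165 CPM in Fabp4-Ebf2 (log2 fold change 0.32, SE 0.11, edgeR adjusted p = 0.175). Its groups overlapped by wild-type replicate 1. Its paralog Slc25a40 was at 11.6 to 13.3 CPM in wild type and 10.6 to 13.5 CPM in Fabp4-Ebf2. The mitoferrins, which bring iron into the matrix for haem and iron-sulphur clusters, had log2 fold changes of -0.20 for Slc25a37 and 0.07 for Slc25a28.

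Among the 10 carriers related to uncoupling proteins or of less defined substrate, Slc25a34 rose and 0 fell, with 4 higher and 0 lower at an unadjusted p under 0.05 and 3 higher by DESeq2. Slc25a35, a carrier close to Slc25a34 in the family, was at 58.9, 30.2, 40.1 and 38.8 CPM in wild type and 85.7, 64.7, 110 and 64.3 CPM in Fabp4-Ebf2. The groups did not overlap, and the log2 fold change was 0.95 (SE 0.23) with edgeR adjusted p = 0.0572, just outside the threshold. It passed without wild-type replicate 1 (edgeR adjusted p = 0.0391) or Fabp4-Ebf2 replicate 2 (0.0401), and DESeq2 placed it past the threshold at 0.00282. In all it passed under 6 of 15 alternatives, and with other single libraries left out its edgeR adjusted p rose to as much as 0.152. In the GRCm38 annotation 31.3% of its exon bases overlap Rangrf on the other strand. Rangrf averaged 5.52 CPM in wild type against 6.96 CPM with the transgene. Reads may be shared if strand was not used in counting, and their part in the level of Slc25a35 was not tested.

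Slc25a46, an outer membrane protein tied to mitochondrial shape and lipid supply, was at 75.8, 65.0, 76.2 and 67.8 CPM in wild type and 91.2, 82.6, 103 and 87.1 CPM in Fabp4-Ebf2. The groups did not overlap (log2 fold change 0.35, SE 0.09, edgeR adjusted p = 0.0770), and DESeq2 passed it at adjusted p = 0.0183. In the GRCm38 annotation 7.1% of its exon bases overlap B930094E09Rik on the other strand, so reads may be shared there too. Slc25a48 was scarce, at 0.155 to 0.998 CPM in wild type and 0.859 to 2.25 CPM in Fabp4-Ebf2 from 4 to 39 reads, and overlapped (log2 fold change 1.48, SE 0.49, edgeR adjusted p = 0.144). Slc25a27, also called UCP4, was at 6.51 to 8.03 CPM in wild type and 5.36 to 6.42 CPM in Fabp4-Ebf2, all transgenic libraries below (log2 fold change -0.26, SE 0.13, edgeR adjusted p = 0.339). Slc25a30 and Slc25a43 had log2 fold changes of 0.22 and 0.24, and Slc25a14, Slc25a45 and Slc25a47 of -0.03, -0.01 and -0.04.

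At FDR under 0.05, 6 members were higher and 1 lower in the authors' deposited table, beside 2.98% and 1.21% of the genes of that table. For Slc25a35, Slc25a17 and Slc25a48, which did not pass here, the FDR in the authors' deposited table was 2.22e-05, 0.00629 and 0.0181.

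The 5 members left out by the filter were the ornithine carrier Slc25a2, the glutamate carrier Slc25a18, the oxodicarboxylate carrier Slc25a21, the testis ADP/ATP carrier Slc25a31 and the ATP-Mg/phosphate carrier Slc25a41. Their libraries held 0 to 16 reads each. At these depths 3 reads make 0.116 to 0.178 CPM, so no difference between the genotypes could be read at this depth.

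Carriers with like substrates were compared as ratios within each library, since both genes then share the library's depth and the gene lengths cancel between genotypes. The 7 pairs with both genes tested were compared by log2 ratio in an exact permutation test, two-sided, with 0.5 CPM added to each level. The smallest p that 70 arrangements allow is 0.0286, and after adjustment over the 7 pairs a single pair at that p could not pass. That 0 of 7 ratios passed therefore does not tell a changed ratio from an unchanged one. The log2 ratio of Slc25a42 to Slc25a16 was 0.15, -0.39, -0.12 and 0.07 in wild type and 2.26, 1.30, 2.34 and 1.75 in Fabp4-Ebf2. The carriers were at like levels in wild type and Slc25a42 was well ahead in every transgenic library, a difference of 1.99 in the means (exact permutation p = 0.0286, adjusted p = 0.100). The log2 ratio of Slc25a39 to Slc25a40 was 3.50 ± 0.16 in wild type and 3.86 ± 0.16 in Fabp4-Ebf2 (n = 4 each), also without overlap (exact permutation p = 0.0286, adjusted p = 0.100). Both differences come from the same values as the member tests and are no separate result. In those tests Slc25a42 and Slc25a16 had log2 fold changes of 2.05 and 0.01, and Slc25a39 and Slc25a40 of 0.32 and -0.02.

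The log2 ratio of Slc25a33 to Slc25a36 differed by 0.36 with overlapping groups (exact permutation p = 0.0571, adjusted p = 0.133). That of the ADP/ATP carriers Slc25a4 and Slc25a5 was -0.26, -0.24, -0.26 and -0.29 in wild type and -0.12, -0.28, -0.09 and -0.16 in Fabp4-Ebf2. The wild-type values lay within a narrow band, and Fabp4-Ebf2 replicate 2 fell inside it (difference 0.10, exact permutation p = 0.114, adjusted p = 0.200). For the mitoferrins, Slc25a37 over Slc25a28, the values were 0.88, 0.79, 0.75 and 0.79 against 0.36, 0.95, 0.38 and 0.43. Here too replicate 2 was the transgenic library that stood apart from the other 3 (difference -0.27, exact permutation p = 0.143, adjusted p = 0.200). Slc25a12 over Slc25a13 differed by 0.14 (exact permutation p = 0.171) and Slc25a25 over Slc25a24 by -0.02 (p = 1.0).

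**Figure D4:**
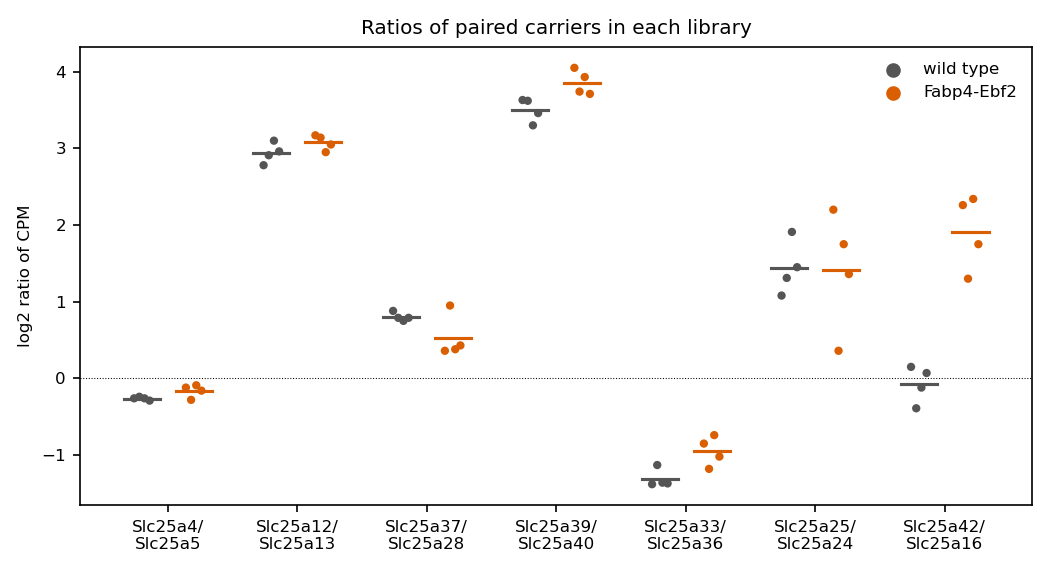
Log2 ratio of the CPM of 7 pairs of carriers in each library (y axis), grey for wild type and orange for Fabp4-Ebf2, with the group means as bars. The genotypes separate for Slc25a42 over Slc25a16 and for Slc25a39 over Slc25a40.

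Family proteins with other symbols and further transport proteins of the mitochondrial membranes gave 5 of 32 tested genes higher and 0 lower by edgeR, with a median log2 fold change of 0.23. At an unadjusted p under 0.05, 15 were higher and 1 lower, and DESeq2 called 11 and 1. Without Fabp4-Ebf2 replicate 1, wild-type replicate 3 or wild-type replicate 4 the count was 0, and it was 1 without Fabp4-Ebf2 replicate 3, Fabp4-Ebf2 replicate 4 or wild-type replicate 2 and 2 without wild-type replicate 1. The largest changes were in Ucp1, the uncoupling protein of thermogenic fat (log2 fold change 5.03, SE 0.91), and Ucp3, its muscle and brown fat relative (1.42, SE 0.32, edgeR adjusted p = 0.0452).

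Mcart1, now named Slc25a51, carries NAD into the matrix and was at 200, 131, 152 and 179 CPM in wild type and 358, 236, 337 and 257 CPM in Fabp4-Ebf2. It rose 1.80-fold without overlap (edgeR adjusted p = 0.0323). The others past the test, named after their values were seen, were the iron-linked transporter Abcb8 (log2 fold change 0.76) and the outer membrane protein Mtch2 (0.56). The pyruvate carrier subunits, named Brp44l (Mpc1) and Brp44 (Mpc2) in the table, did not pass, at log2 fold changes of 1.00 and 0.54 (edgeR adjusted p = 0.113 and 0.162).

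Among 51 tested enzymes that make or use what the carriers move, 6 rose and 1 fell by edgeR. The list's median log2 fold change was 0.13, DESeq2 called 10 higher and 4 lower, and at an unadjusted p under 0.05 there were 15 and 7. Without wild-type replicate 3 or 4 the counts were 0 and 0. They were 2 and 0 without Fabp4-Ebf2 replicate 1 and 3 and 0 without Fabp4-Ebf2 replicate 4. The lower count was 3 without Fabp4-Ebf2 replicate 2 or wild-type replicate 2 and 0 without Fabp4-Ebf2 replicate 3. Pank1, a pantothenate kinase that starts coenzyme A synthesis, averaged 13.5 ± 5.40 CPM in wild type (SD, n = 4) and was at 67.9, 47.4, 125 and 45.8 CPM in Fabp4-Ebf2. It rose 5.30-fold without overlap (log2 fold change 2.41, SE 0.39, edgeR adjusted p = 0.0155), beside the rise of the coenzyme A carrier Slc25a42. Of the other coenzyme A synthesis genes, 0 of Pank2, Pank3, Coasy and Dcakd passed, at log2 fold changes of -0.04, -0.64, 0.40 and -0.09. Among the listed pantothenate kinases Pank1 had the lowest mean in either genotype. Pank3, the most abundant, averaged 518 CPM without the transgene against 331 CPM with it, with overlapping groups (edgeR adjusted p = 0.225). Pank2 averaged 75.2 against 73.0 CPM. The summed level of these kinases was not tested.

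Ogdh, the first subunit of the 2-oxoglutarate dehydrogenase complex of the citric acid cycle, rose 2.28-fold, from 355 to 533 CPM in wild type to 777 to 1497 CPM in Fabp4-Ebf2 (edgeR adjusted p = 0.0228). Its partner subunits Dlst and Dld rose 2.15-fold and 1.92-fold. Gldc, the glycine decarboxylase of the glycine cleavage system, fell from 3.45 to 6.62 CPM in wild type to 2.10 to 2.55 CPM in Fabp4-Ebf2 (log2 fold change -1.18, SE 0.21, edgeR adjusted p = 0.0207).

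Of the malate-aspartate shuttle enzymes Mdh2 rose 1.70-fold (edgeR adjusted p = 0.0313), while Got1 (log2 fold change -0.01), Got2 (0.01) and Mdh1 (0.25) stayed short of the threshold. The remaining enzyme past the test was Bckdk, the kinase that holds back branched-chain keto acid oxidation (log2 fold change 0.40, SE 0.09, edgeR adjusted p = 0.0361). Bcat2, the branched-chain aminotransferase, ran from 181 to 290 CPM with the transgene against 315 to 359 CPM without it. Every transgenic library was lower, as for 4.07% of all tested genes, but edgeR left it short of the threshold (adjusted p = 0.0611). Other branched-chain genes of the list went up, also short of the threshold. Their log2 fold changes were 0.55 for Bckdha, 0.29 for Bckdhb, 0.29 for Dbt and 0.20 for Ppm1k. Of these, Bckdha separated the genotypes upward, as did 7.35% of all tested genes.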

How the data were processed

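RNA-seq read counts per RefSeq transcript were deposited by the authors for 8 libraries. The submitters' processing notes name the mm9 genome and edgeR, while aligner, counter and strand use: not given in the sources used here. The authors' edgeR log2 fold change and FDR, an adjusted p-value, are in the same table per the file headers. A further 8 per-sample log2 columns with no stated processing were not used. A gene was its transcript marked best (21967 genes) or, with none marked, that with most reads (902 genes).

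Counts of 15002 genes kept by filterByExpr were fitted by genotype alone with glmQLFit and glmQLFTest of edgeR 4.0.16, run under R 4.3.3. TMM factors lay between 0.941 and 1.07, and p-values were adjusted by Benjamini-Hochberg. SE was the absolute log2 fold change over the square root of F, and intervals (95%) used edgeR's degrees of freedom without adjustment for many genes. The biological coefficient of variation was 18.7% in common over the tested genes. Whether spread or depth limited single members was not tested. The procedure was tested on simulated counts. DESeq2 1.42.0, limma 3.58.1 (voom), other factors and filters, transcript choice, a replicate block and libraries left out were alternatives. Lengths were GENCODE M21 transcripts matched by RefSeq accession (42 of 42 members), and ratios were tested in scipy 1.17.1. Figures were drawn with matplotlib 3.10.9.

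Members, lists, ratios and alternatives were chosen with earlier results of these data known. Some results are not reported here. Named genes were the other members, by value or by range, and the 3 largest changes past the test in the transport and the partner enzyme lists (respiratory chain subunits were only counted), with further genes chosen after their values were seen.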

Additional observations from a re-analysis of the deposited data

Results flagged for a closer look

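In 9 of 72 groups of 4 libraries (tested members in each genotype), 1 library lay far from the other 3, where chance flags about 1 in 20 groups, or 3.60. Wild-type replicate 2 was low for Slc25a16 (38.1 CPM against 51.4 to 53.8), Slc25a33 (12.3 against 15.5 to 16.1), Slc25a36 (27.5 against 40.8 to 42.5) and Slc25a44 (74.4 against 111 to 117). The same library was high for Slc25a37, at 88.3 CPM against 72.8 to 74.8. Wild-type replicate 3 was high for Slc25a4 (223 CPM against 204 to 205) and Slc25a25 (80.1 against 51.1 to 53.4). Fabp4-Ebf2 replicate 3 was high for Slc25a11 (140 CPM against 119 to 122) and Slc25a26 (30.7 against 20.6 to 22.2). None of these 9 genes passed edgeR's test.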

How the results depend on the processing

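Slc25a34 passed under all 15 alternatives, and Slc25a42 under all but the omission of wild-type replicate 3. Of 555 member values under the alternatives, 516 kept their direction and side of the threshold, 14 passed anew, 1 no longer passed and 24 changed sign. The members called higher were 6 with DESeq2, 5 without both libraries rich in muscle transcript (wild-type replicate 1, Fabp4-Ebf2 replicate 2) and 2 to 5 with 1 library left out. Those called lower were 1 with DESeq2 (Slc25a10) and 0 to 1 with 1 library left out. Other transport genes called higher were 11 with DESeq2, 2 with limma-voom and 0 to 7 with 1 library left out, and those called lower 1 with DESeq2 and 0 to 1. Partner enzymes called higher were 10 with DESeq2 and 0 to 8 with 1 library left out, and those called lower 4 and 0 to 3. Respiratory chain subunits called higher were 9 to 45 with 1 library left out, and this list was not planned before the data were seen. The fit has fewer degrees of freedom whichever library is left out, and why the counts differed was not tested.

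Replicate numbers are shared between the genotypes, and the library names alternate wild type and transgenic in that order. Same-numbered libraries did not deviate together in every pair (correlations -0.133, 0.331, 0.142 and 0.0574). Whether they were handled in pairs is not in the labels, and these correlations cannot decide it. With the replicate block 6 members were called higher, with Slc25a35, Slc25a46 and Slc25a44 added (edgeR adjusted p = 0.0237, 0.0438 and 0.0229), and 1 of the 4 numbers paired best with its own in both genotypes.

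Values near 0 changed sign. Slc25a16 was at -0.0016 with RLE factors and Slc25a25 at 0.01 without both libraries rich in muscle transcript. With 1 library left out, log2 fold changes ran from -0.13 to 0.14 for Slc25a14, -0.10 to 0.05 for Slc25a16, -0.05 to 0.12 for Slc25a22, -0.14 to 0.13 for Slc25a23, -0.32 to 0.05 for Slc25a25, -0.10 to 0.09 for Slc25a36, -0.08 to 0.01 for Slc25a38, -0.07 to 0.04 for Slc25a40, -0.0026 to 0.36 for Slc25a43, -0.10 to 0.15 for Slc25a45 and -0.18 to 0.13 for Slc25a47. The 7 ratios stayed within the spread between libraries under their alternatives. The 5 untested members were left out for low counts. Slc25a43 and Slc25a48 were scarce, at 4 to 17 and 4 to 39 reads per library, and what limited their tests was not tested.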
